A study of Trametes pubescens and Hermanssonia centrifuga with 16 samples.

Results

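The response of Trametes pubescens to a warmer culture temperature on spruce was taken from 4 of the 16 RNA sequencing libraries of a study of wood-decay fungi. The libraries were chosen by their titles, 2 from mycelium grown on spruce at 25 °C and 2 from mycelium grown on spruce at 15 °C. All were strain FBCC735, grown for 21 days on 2 g (dry weight) of Norway spruce sticks on water agar at a moisture content of 60%, and all came from liquid precultures kept at 25 °C. The culture temperature was taken from the titles and treatment labels, since the protocol text names only 25 °C for the solid cultures. The 4 libraries of the same fungus on wheat straw, 2 at each temperature, entered the fit for the estimate of the spread, and with it the filter on low counts and the scaling, and the 8 libraries of Phlebia centrifuga were not used. Whether the libraries of 1 group stem from different cultures is not stated in the labels, and p-values therefore reflect only how far these libraries differ, which may be technical.

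White-rot fungi such as T. pubescens degrade the lignin of wood together with its cellulose and hemicellulose, by enzymes that the hyphae secrete into the wood. Spruce is a softwood, with a lignin built mainly of guaiacyl units and galactoglucomannan as a major hemicellulose. Temperature is known to act on the growth rate of fungi, on the fluidity of their membranes and on the folding of their proteins. The deposited files identify each gene model by a JGI identifier with a scaffold and a model number and do not pair it with a gene name, so the results are given by identifier, level, scaffold and library, with no function. The measurements are of bulk RNA, in which a smaller share of active hyphae and less transcript per cell cannot be told apart.

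The spruce libraries held 10180387 to 13635999 raw counts, and 12223 to 12325 of 14451 gene models had at least 1 count in a library. After removal of models with too few counts, 11622 were tested, with at least 99.97% of every library's counts. Levels are given as CPM, the counts scaled to a common library total after TMM (trimmed mean of M-values) scaling.

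The libraries differed between temperatures only a little more than within a temperature. The SD across genes of the log2 CPM difference was 0.65 between the 2 libraries at 25 °C and 0.44 between the 2 libraries at 15 °C. Between temperatures it was 0.58 for the libraries numbered 1, 0.61 for the libraries numbered 2, 0.68 for the first at 25 °C and the second at 15 °C, and 0.71 for the second at 25 °C and the first at 15 °C. The mean over these 4 comparisons was 1.18 times the mean over the 2 within a temperature. The 2 libraries at 25 °C thus lay farther from each other than either lay from its closest library at 15 °C. A difference of at least 2-fold was seen between the 2 libraries at 25 °C for 1162 models (9.998%), between the 2 at 15 °C for 379 (3.26%), and between temperatures for 893 to 1343 models (7.68% to 11.6%), depending on the libraries taken.

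**Figure D1:**
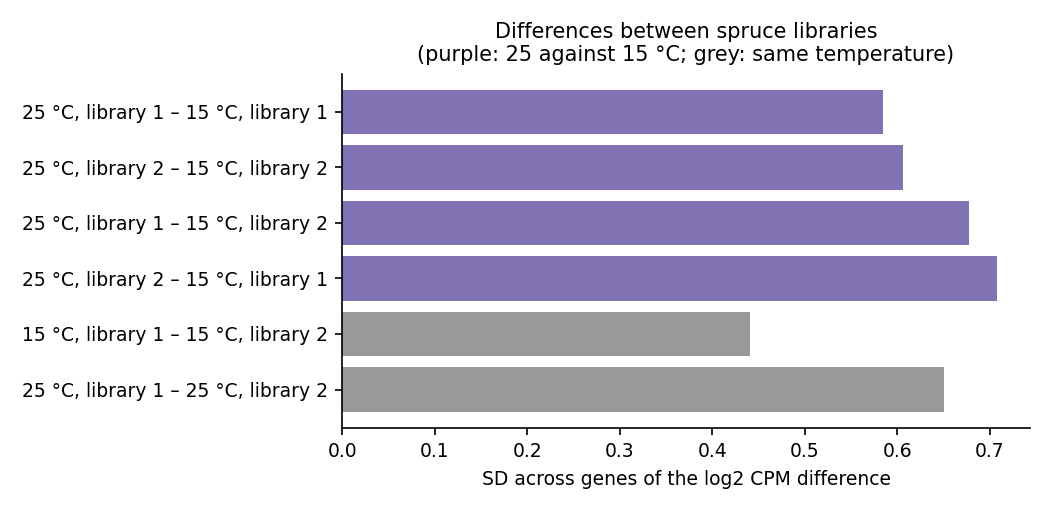
Bars give the SD across 11622 gene models of the log2 CPM difference between 2 spruce libraries, purple between temperatures and grey within a temperature. The 2 libraries at 25 °C differed by 0.65 and the 2 at 15 °C by 0.44, and the differences between temperatures lay between 0.58 and 0.71.

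By the SDs above, the second library at 25 °C was not set apart from the first. It stood apart in the number of models raised at least 4-fold in it and not in the first. In that library alone, 50 models lay at least 4-fold above both libraries at 15 °C while the first library at 25 °C stayed under 2-fold above the higher of them, counting models that reached 10 CPM in some library. The reverse, with the first library at 25 °C at least 4-fold above and the second under 2-fold above, was seen for 6 models. By the same measure for falls, 5 models lay below both libraries at 15 °C in the first library at 25 °C alone. For the second library at 25 °C the number was 3. The 50 models were selected after the values were seen and get no test. In part of them the first library at 25 °C also lay above both libraries at 15 °C. Model 2 of scaffold 1227, for example, had 293 CPM in that library, against 172 and 153 CPM at 15 °C. Their median level was 52.5 CPM in the second library at 25 °C and 7.44 CPM in the first, against 6.35 and 7.63 CPM in the first and second libraries at 15 °C. They took 0.653% of the counts of the second library at 25 °C and 0.0919% of the first, against 0.0705% and 0.0816% at 15 °C. None of the 50 was among the genes called below. They were chosen for a wide gap between the 2 libraries at 25 °C, which enters the test as spread, so this is no separate result.

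At 25 °C, 39 gene models rose and 34 fell relative to 15 °C on spruce, by edgeR's quasi-likelihood test with Benjamini-Hochberg adjusted p below 0.05. These are 0.336% and 0.293% of the 11622 models tested, and 0.628% for both directions. In every one of the 73 models both libraries at 25 °C lay on the same side of both libraries at 15 °C, with means at least 2-fold apart. Across all tested models this condition held for 737 (6.34%), of which 532 (4.58%) were higher and 205 (1.76%) lower at 25 °C. The called models are thus a small part of those that met it. With 2 libraries against 2, an exact permutation test of a single model cannot give a two-sided p below 0.333. At an unadjusted p below 0.05, 905 models were higher (7.79%) and 544 lower (4.68%) at 25 °C. Without TMM, on library totals alone, the split of 39 against 34 became 72 against 23; the median log2 fold change over all tested models was then 0.18, and 0.03 with TMM. A fit of the 4 spruce libraries alone called no model with edgeR (1141 had an unadjusted p below 0.05), and DESeq2 on all 8 libraries called 457 (3.93%; 295 higher, 162 lower), among them all 73.

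**Figure D2:**
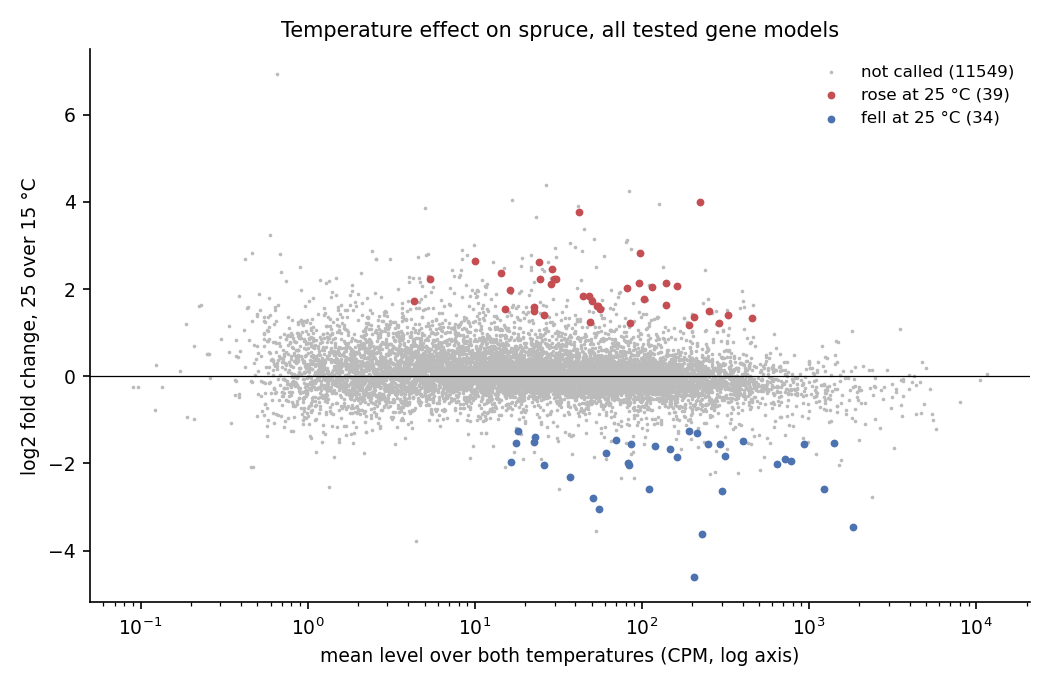
Each point is 1 of the 11622 gene models tested, with the mean of its levels at 25 and 15 °C (CPM, log axis) and its log2 fold change, 25 over 15 °C. Red points are the 39 models that rose and blue points the 34 that fell; those that fell reach higher levels than those that rose.

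The 39 models that rose were of moderate abundance. Over these models the median of the group means was 78.1 CPM at 25 °C and 24.1 CPM at 15 °C, against medians of 28.6 CPM at 25 °C and 27.1 CPM at 15 °C over all models tested. The highest reached 656 CPM at 25 °C, and none reached 1000 CPM. Their log2 fold changes lay between 1.18 and 4.01 with a median of 1.84. A rise of at least 4-fold was seen in 17 of them and of at least 8-fold in 2. At 15 °C 10 of the 39 were under 10 CPM and none was under 1 CPM, so no model went from undetected to abundant. In 37 of the 39 the lower library at 25 °C was at least 2-fold above the higher library at 15 °C. The test favours models with such a gap, so the choice of the models largely fixes this count. Its share over all tested models was not counted. Together the 39 models took 0.480% and 0.597% of the counts in the libraries at 25 °C, against 0.142% and 0.152% at 15 °C.

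The 34 models that fell were more abundant at 15 °C than those that rose, and less abundant at 25 °C. Over these models the median of the group means was 51.7 CPM at 25 °C and 237.7 CPM at 15 °C, and 7 of them were at 1000 CPM or more at 15 °C. Their log2 fold changes lay between -4.61 and -1.25 with a median of -1.84. A fall of at least 4-fold was seen in 12 and of at least 8-fold in 4. At 25 °C 2 of the 34 were under 10 CPM, and none was under 1 CPM. In all 34 the lower library at 15 °C was at least 2-fold above the higher library at 25 °C. Here too the choice of the models largely fixes the count, and its share over all tested models was not counted. The 34 models took 0.363% and 0.451% of the counts at 25 °C, against 1.31% and 1.80% at 15 °C. The summed shares of the 2 temperatures did not overlap for either group of models, as the choice of the models fixes.

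**Figure D3:**
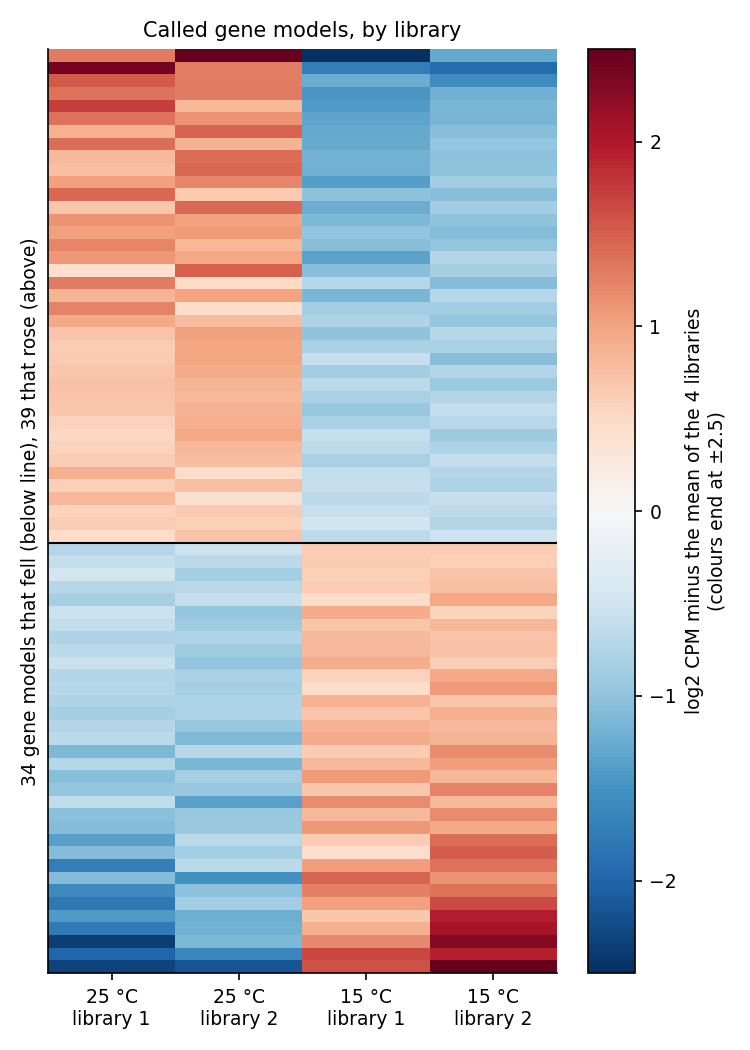
Rows are the 73 called gene models, the 39 that rose above the line and the 34 that fell below it, and columns are the 4 spruce libraries. Colour gives the log2 CPM minus the mean of the 4 libraries; in every row both libraries at 25 °C lie on the other side of both at 15 °C.

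By the group means, most models of high abundance had lower levels at 25 °C. The models of a class share the same 4 libraries and are not replicates. The classes were not compared between libraries of the same temperature. Among the 149 models with a mean of 1000 CPM or more over both temperatures, 113 had a negative log2 fold change and the median was -0.30. Of these, 3 fell and 0 rose by the adjusted test, which is 2.01% and 0%, and 15 were at least 2-fold lower (10.1%) against 2 at least 2-fold higher (1.34%). Among the 3409 models under 10 CPM the median log2 fold change was 0.15. There 300 (8.80%) were at least 2-fold higher and 60 (1.76%) at least 2-fold lower at 25 °C, while 2 rose and 0 fell by the adjusted test. The 5856 models of 10 to 100 CPM had a median of 0.02, with 25 that rose and 14 that fell, and the 2208 models of 100 to 1000 CPM had a median of -0.07, with 12 that rose and 17 that fell. The order of these 4 medians was the same with RLE scaling and with library totals, where they ran from -0.15 in the most abundant class to 0.30 in the least abundant. With library totals the median of the class of 100 to 1000 CPM turned positive, at 0.08.

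The mean share of counts held by the most abundant models was lower at 25 °C. The 10 most abundant models of a library took 6.87% and 5.40% of its counts at 25 °C, against 7.63% and 5.94% at 15 °C. The 50 most abundant took 17.7% and 15.2% at 25 °C, against 20.0% and 17.8% at 15 °C. The temperatures overlapped for the 10 most abundant models, and for the 50 most abundant the higher library at 25 °C lay just under the lower one at 15 °C. Of the 50 most abundant models of each library, 32 were shared by all 4. Of the 75 models that were among the 50 in at least 1 library, 1 was called, and it fell. Over all models tested 0.628% were called, and 1 model is too few to set against that share.

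The gene models named were, in each direction, the called model with the smallest p and the one with the largest difference in mean CPM among the rest. Of those that rose, jgi|Trapub1|12376|scaffold_703.12 (model 12 of scaffold 703) had 17.6 and 16.9 CPM at 25 °C, against 2.52 and 3.00 CPM at 15 °C. Its means were 17.3 ± 0.46 CPM at 25 °C and 2.76 ± 0.34 CPM at 15 °C (SD, n = 2 each), and its log2 fold change was 2.64 ± 0.26 (SE; edgeR adjusted p = 0.0122). It is a rare transcript, with 215 and 184 counts at 25 °C and 21 and 32 counts at 15 °C, and the libraries of each temperature lay close together. Its call was lost without the first or the second library at 15 °C (edgeR adjusted p = 0.112 and 0.0764) and in the fit of the 4 spruce libraries alone (0.0744), and held in the other 14 alternatives, with an adjusted p of 1.06e-10 by DESeq2 as the lowest.

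The rise with the largest difference in level was that of jgi|Trapub1|3206|scaffold_1380.79 (model 79 of scaffold 1380), with 618 and 694 CPM at 25 °C, against 275 and 242 CPM at 15 °C. Its means were 656 ± 54 CPM at 25 °C and 259 ± 23 CPM at 15 °C (SD, n = 2 each), and its log2 fold change, 1.34 ± 0.23 (SE, adjusted p by edgeR = 0.0419), was among the smaller ones called. The groups did not overlap, and the call stood near the threshold. It was lost in 8 of 17 alternatives. It was lost without the second library at 25 °C (adjusted p = 0.0574 by edgeR), without the first or second library at 15 °C (0.207 and 0.326), without any of the 4 straw libraries (0.0670 to 0.0849) and with the 4 spruce libraries alone (0.176).

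The fall with the smallest p was that of jgi|Trapub1|8912|scaffold_295.10 (model 10 of scaffold 295). It had 30.1 and 38.3 CPM at 25 °C, against 382 and 460.0 CPM at 15 °C, with means of 34.2 ± 5.8 CPM at 25 °C and 421 ± 55 CPM at 15 °C (SD, n = 2 each). The log2 fold change was -3.62 ± 0.26 (SE; edgeR adjusted p = 0.00223). Of the 73 called models it was the 1 whose call held with each of the 8 libraries left out in turn. It was lost with the 4 spruce libraries alone (adjusted p = 0.0742 by edgeR), where the log2 fold change was -3.66, and held in the other 16 alternatives, with 6.41e-36 by DESeq2 as the lowest.

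The largest difference in level of any called model was a fall. The model jgi|Trapub1|3255|scaffold_1382.25 (model 25 of scaffold 1382) had 182 and 429 CPM at 25 °C, against 2147 and 4572 CPM at 15 °C. Its libraries differed from each other more than 2-fold at either temperature, and the groups stayed far apart. The means were 305 ± 174 CPM at 25 °C and 3359.5 ± 1715 CPM at 15 °C (SD, n = 2 each), and the log2 fold change was -3.46 ± 0.48 (SE, adjusted p by edgeR = 0.0241). The call was lost without the first or second library at 15 °C (adjusted p = 0.0636 and 0.164 by edgeR) and with the 4 spruce libraries alone (0.114), and held in the other 14 alternatives, with 7.28e-13 by DESeq2 as the lowest.

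**Figure D4:**
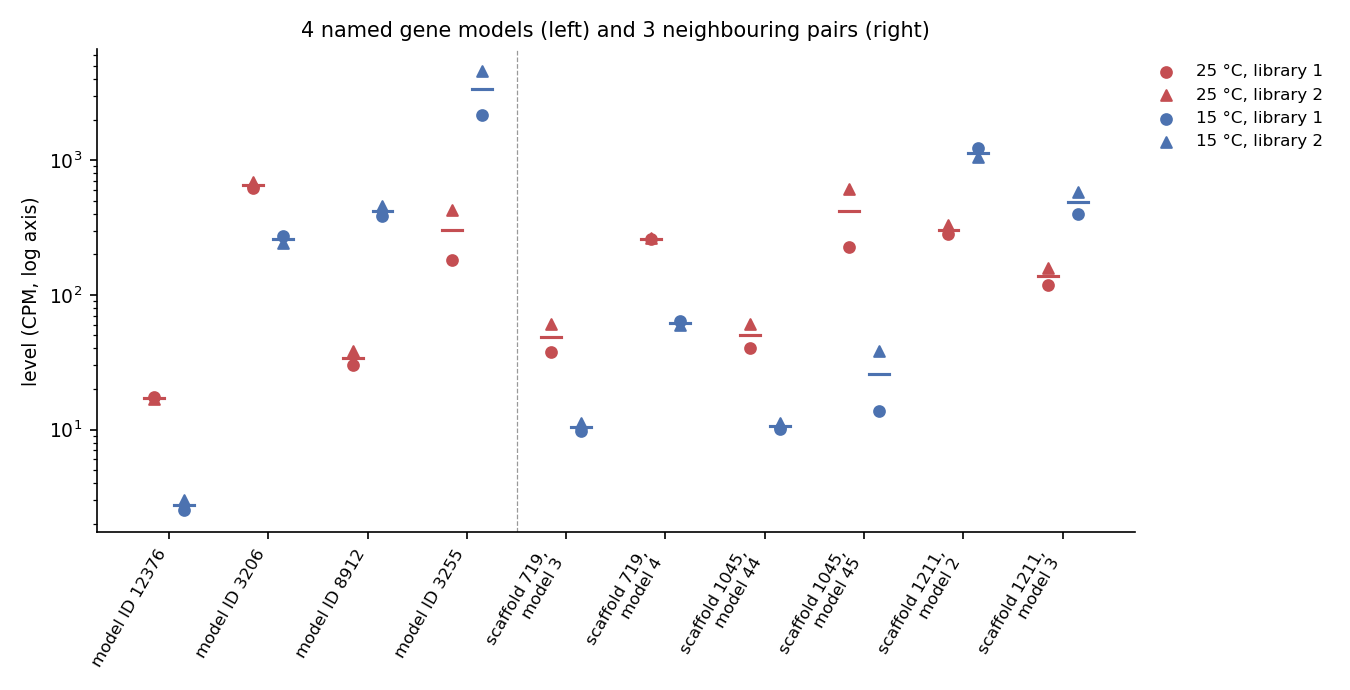
Points give the level (CPM, log axis) of 10 called gene models in each spruce library, red at 25 °C and blue at 15 °C, circles for library 1 and triangles for library 2, with a line at the mean. On the left are the 4 models named by rule and on the right 3 pairs that carry consecutive model numbers on a scaffold; no model's groups overlap.

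Some of the called models carried consecutive numbers on a scaffold and changed together. Of 10263 pairs of tested models with consecutive numbers, both members were called in 3 (0.0292%), and in all 3 the members changed in the same direction. These pairs were singled out after their values were seen, and reads shared by overlapping or near-identical neighbours could not be told apart in these counts. Whether model numbers follow position on the scaffold is not stated in the files.

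Models 3 and 4 of scaffold 719 both rose. Model 3 had 37.7 and 60.4 CPM at 25 °C, against 9.71 and 11.1 CPM at 15 °C (log2 fold change 2.23 ± 0.28, SE, edgeR adjusted p = 0.0195). Model 4 had 258 and 265 CPM at 25 °C, against 63.9 and 60.1 CPM at 15 °C (2.08 ± 0.24, edgeR adjusted p = 0.0146). The members of this pair thus rose by nearly the same factor.

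Models 44 and 45 of scaffold 1045 also rose, by unequal factors. Model 44 had 40.3 and 60.3 CPM at 25 °C, against 10.1 and 11.2 CPM at 15 °C (log2 fold change 2.24 ± 0.28, edgeR adjusted p = 0.0195). Model 45 had 227 and 615 CPM at 25 °C, against 13.8 and 38.3 CPM at 15 °C (4.01 ± 0.58, edgeR adjusted p = 0.0308), the highest fold change of the 39 that rose. In both models the second library of a temperature was the higher one. Model 42 of the same scaffold had 19.1 and 47.3 CPM at 25 °C, against 6.47 and 11.5 CPM at 15 °C. It was among the 50 that met the 4-fold condition only in the second library at 25 °C, but both libraries at 25 °C were higher. In each of models 40 to 47 of this scaffold both libraries at 25 °C lay above both at 15 °C. Of these, only models 44 and 45 were called. The separation counted here needs no 2-fold difference of the means, and its share over all tested models was not counted. This run was singled out after its values were seen and was not tested as a group.

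Models 2 and 3 of scaffold 1211 both fell. Model 2 had 282 and 329 CPM at 25 °C, against 1226 and 1049.5 CPM at 15 °C (log2 fold change -1.90 ± 0.23, edgeR adjusted p = 0.0175). Model 3 had 118 and 158 CPM at 25 °C, against 398 and 579.9 CPM at 15 °C (-1.83 ± 0.29, edgeR adjusted p = 0.0380). The fold changes of this pair again lay within their standard errors of each other. Each of the 6 models of the 3 pairs lost its call when either spruce library at 15 °C was left out (edgeR adjusted p of 0.0764 to 0.243). Model 45 of scaffold 1045 and model 3 of scaffold 1211 also lost it without either straw library at 25 °C (0.0524 to 0.0670), and that of scaffold 1211 with library totals alone (0.0543).

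The called models lay on 61 of the 832 scaffolds with tested models, and 23 of the 73 shared a scaffold with another called model. These were on 11 scaffolds, in 8 of which all called models changed in the same direction. Scaffolds with more tested models can hold more called ones. The numbers to be had from models drawn at random were not computed, so these counts do not show clustering. The most on 1 scaffold was 3, on scaffold 175, all of which rose. All 9 models of that scaffold were tested and had a positive log2 fold change, between 0.47 and 2.36, and in 7 of the 9 the libraries at 25 °C lay above those at 15 °C. This count sets no 2-fold condition on the means, so the 4.58% given above for all models is not its background. The share of all models by the looser measure was not counted. Of the called models, model 3 had 19.0 and 28.9 CPM at 25 °C, against 4.31 and 4.96 CPM at 15 °C (log2 fold change 2.36 ± 0.32, edgeR adjusted p = 0.0241). Model 6 had 71.8 and 90.9 CPM at 25 °C, against 30.8 and 22.1 CPM at 15 °C (1.62 ± 0.25, edgeR adjusted p = 0.0327). Model 8 had 243 and 289 CPM at 25 °C, against 113 and 123 CPM at 15 °C (1.18 ± 0.21, edgeR adjusted p = 0.0458). Of the 376 scaffolds with at least 9 tested models, 2 had positive fold changes throughout and 0 had negative ones throughout. Scaffold 175 was singled out after its values were seen. All 3 calls were lost when either spruce library at 15 °C was left out (edgeR adjusted p of 0.124 to 0.314). In the other fits that left out 1 library, that of model 6 was also lost without either straw library at 15 °C (0.0530 and 0.0542), and that of model 8 without the second library at 25 °C (0.0683) or any straw library (0.0789 to 0.0916).

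Beyond the called neighbours, 84 of the 126 tested but uncalled models next to a called one had the sign of the called model (66.7%), and 15 (11.9%) differed by at least 2-fold in its direction, counting a model once for each called neighbour. Across all pairs of consecutive models the signs were the same in 55.3%, and 5.09% of all models were at least 2-fold higher and 1.85% at least 2-fold lower at 25 °C. The log2 fold changes of consecutive models had a Pearson r of 0.195 and a Spearman rho of 0.160 across 10263 pairs, which share the same 4 libraries and are not independent.

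Many large differences did not pass the test. A change of at least 4-fold at a level of at least 10 CPM in the higher group was measured for 90 models, 67 higher and 23 lower at 25 °C, and 28 of them were called. Among the 62 not called, 51 were higher at 25 °C, and in 47 the libraries of the 2 temperatures did not overlap. Models chosen for a 4-fold difference of the means tend to separate in this way. The share of all tested models that did so was not counted. The 2 libraries at 25 °C differed by a median factor of 4.24 in these 62 models and by 1.41 in the 28 called ones. At 15 °C the factors were 1.41 and 1.22. The gap between libraries of a temperature enters the test as spread. A wider gap in the uncalled models thus follows from the split and is no separate result. In 30 of the 51 the second library at 25 °C was at least 2-fold above the first. Models at least 4-fold higher in both libraries at 25 °C than in both at 15 °C numbered 13, of which 6 were called, and all 6 models lower by this measure were called.

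The number of calls rested most on the libraries at 15 °C. Without the first of these edgeR called 4 models and without the second 1, all of which fell and were among the 73 (954 and 946 had an unadjusted p below 0.05). Without the first library at 25 °C 334 models were called, 236 higher and 98 lower, and without the second, which stood apart, 130, of which 97 were higher and 33 lower. These lists held 71 and 51 of the 73, in the same direction. Leaving out a straw library, which enters through the spread, the filter and the scaling, gave 48 and 47 calls for those at 25 °C and 38 for either at 15 °C. Of the 73 models, 26 kept their call in at least 6 of the 8 fits and 1 in none, and none of the 73 changed sign in any of them.

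**Figure D5:**
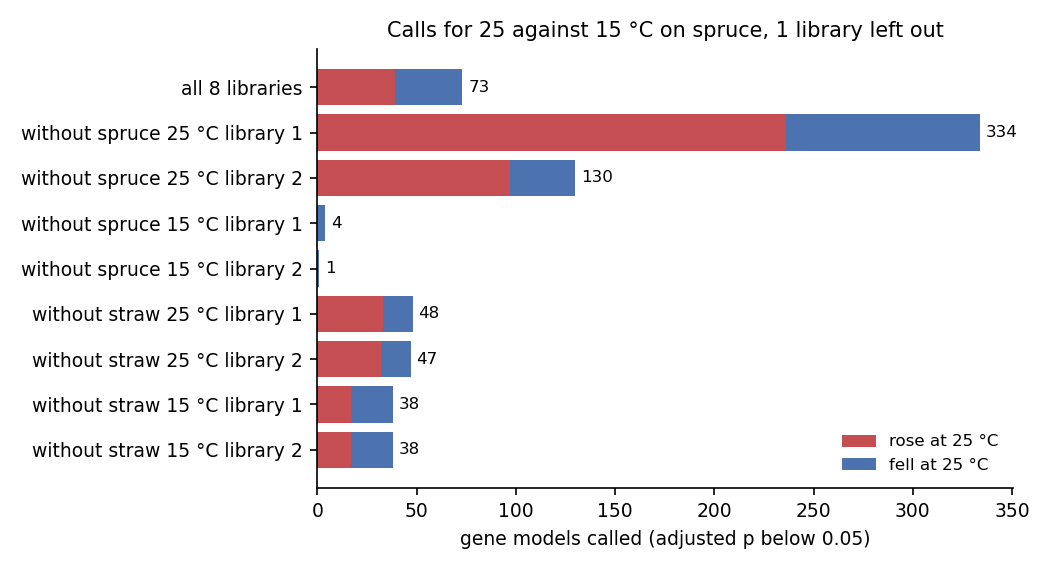
Bars give the number of gene models called for 25 against 15 °C on spruce, red for those that rose and blue for those that fell, with all 8 libraries or with 1 of them left out. The count was 73 with all libraries, 334 when the first library from spruce at 25 °C was left out and 1 when the second at 15 °C was.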

How the data were processed

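The deposited values are unnormalized counts of reads for each gene model; the authors used Trimmomatic 0.36 and STAR 2.7.10a, per the submitters' processing notes. For the counting tool, strand setting, genome build and annotation version, the entry is: not given in the sources used here. Models were filtered with edgeR's filterByExpr over the 8 T. pubescens libraries. They were scaled by TMM and fitted with edgeR 4.0.16 under R 4.3.3, using 1 coefficient for each group and no replicate block, leaving 4 residual degrees of freedom. The contrast of spruce at 25 °C against spruce at 15 °C was tested by glmQLFTest, with p-values adjusted by Benjamini-Hochberg over all 11622 models. Fold changes are relative to the bulk of models. Log2 CPM used a prior count of 2. The standard error is the log2 fold change divided by the square root of F. Named genes did not overlap between temperatures and reached a mean of 10 CPM at 1 of them; the rule is given where they are named. Alternatives were RLE scaling and library totals alone, other filters, DESeq2 1.42.0, robust estimation, the 4 spruce libraries alone, replicate blocks and each library left out. The fit was run on simulated counts with 200 changed models. These were drawn independently for each library, so the check does not cover deviations shared by libraries with the same number. Libraries of a group were not duplicates: the chi-square per degree of freedom of their counts was 89.1 at 25 °C and 43.9 at 15 °C. The comparison, rules and tests were chosen with earlier results of these data known. No gene list was tested, since no identifier was paired with a product.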

Additional observations from a re-analysis of the deposited data

How the results depend on the processing

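The 73 calls (39 that rose, 34 that fell) stayed within 1.5 times their number with RLE scaling (74) and robust estimation (74). They also did so with no filter beyond all-zero models (93) and with a minimum mean of 50 counts (73). The 3 neighbouring pairs became 6 with no filter beyond all-zero models. With RLE scaling, robust estimation and the minimum mean they stayed at 3. Library totals alone gave 72 that rose and 6 neighbouring pairs. DESeq2 called 457 models (295 higher, 162 lower, 59 neighbouring pairs). The 4 spruce libraries alone gave 0 calls in edgeR, 0 in either direction and 0 neighbouring pairs, with 2 residual degrees of freedom and 1141 models at an unadjusted p below 0.05. Left-out libraries gave 1 to 334 calls, 0 to 236 that rose, 1 to 98 that fell and 0 to 48 neighbouring pairs; where 1 spruce library of a temperature remained, it was assumed to vary like the other groups. The 737 models that did not overlap and had means at least 2-fold apart became 555 to 892 under other scalings and filters. The difference in the share of the top models, 25 minus 15 °C, was -0.65 percentage points for the top 10 and -2.45 for the top 50.

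Libraries with the same number deviated together on spruce (across models, r = 0.438 between the deviations at 25 and 15 °C). Among the 8 libraries r was also 0.429 and 0.314 between the straw libraries at 15 °C and the spruce libraries at 25 and 15 °C, but -0.194 to -0.105 with the straw libraries at 25 °C, so the numbers do not pair the samples throughout. With a replicate block edgeR called 163 models in the 8-library fit (86 higher, 77 lower, 12 neighbouring pairs), which held all 73. In the 4 spruce libraries alone, an alternative added after seeing the data, the block gave 150 (76 higher, 74 lower, 14 neighbouring pairs), which held 62 of the 73. The cause was not tested.

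Rare models such as that on scaffold 703 rest on few counts at 15 °C, and 2 libraries per temperature limit every estimate of spread.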

Other observations

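The 50 models that met the 4-fold condition in the second library at 25 °C and not in the first lay on 39 scaffolds. Of these models, 10 fell into 6 pairs with consecutive model numbers. Scaffold 1112 held 4 of the 50, its models 4, 13, 15 and 16. Model 4 of this scaffold had 1335 CPM in the second library at 25 °C and 64.9 CPM in the first, against 240 and 212 CPM at 15 °C, and was the most abundant of the 50. Models 15 and 16, which are consecutive, had 265 and 82.6 CPM in the second library at 25 °C and 27.2 and 3.03 CPM in the first. At 15 °C model 15 had 17.9 and 15.4 CPM and model 16 had 3.47 and 3.28 CPM. Models 11, 12 and 13 of scaffold 1535 and models 13, 14 and 15 of scaffold 1687 were also among the 50. On scaffold 1535 the levels in the second library at 25 °C were 283, 60.4 and 60.9 CPM, and those in the first were 18.7, 9.08 and 1.96 CPM. No model of these runs passed the test of temperature, and the models were singled out after their values were seen. The gap between the libraries at 25 °C by which they were chosen enters that test as spread.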
